A study of Mus musculus with 12 samples.

Results

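A set of 8 genes of chloride handling was followed through the 12 astrocyte libraries: Slc12a2, Slc12a4, Slc12a5, Slc12a7 and Slc12a9, which encode cation-chloride cotransporters or relatives of them, and Wnk1, Stk39 and Oxsr1, which encode the kinases that control them. They were chosen by gene symbol, 8 of the 20614 genes in the expression table. The means of 7 of the 8 were above 5 TPM (the length-corrected share of a transcript in its library) in every genotype, so these 7 did not depend on any one genotype to be tested. Slc12a5 stayed under that level in each genotype and was described without a test. All 8 genes had a value for every library.

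Cation-chloride cotransporters move chloride together with sodium or potassium and take water with it, so they set both the chloride level and the volume of a cell. Slc12a2 encodes NKCC1, which carries sodium, potassium and chloride inward. Slc12a4, Slc12a5 and Slc12a7 encode KCC1, KCC2 and KCC4, which carry potassium and chloride outward, and Slc12a9 encodes a more distant relative. WNK1 senses chloride and osmotic stress and activates SPAK (Stk39) and OSR1 (Oxsr1), which phosphorylate the cotransporters and thereby switch NKCC1 on and the KCCs off. In the brain, NKCC1 is best known from choroid plexus, glia and immature neurons, and KCC2 from mature neurons.

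The libraries were made from astrocytes of the midbrain of male mice aged 12 to 14 months, dissociated from striatum, thalamus and substantia nigra and taken with antibody beads against ACSA-2 after myelin, endothelial and CD11b-bearing cells had been removed. There were 3 Cd38+/+ libraries (wild type), 3 Cd38+/- libraries (1 disrupted allele of Cd38) and 6 Cd38-/- libraries (both alleles disrupted), all from mice bred on the C57BL/6J strain. The disruption is present in every cell type of the animal, not in astrocytes alone, and the labels name no treatment. Cd38 encodes an enzyme that consumes NAD+, and the genotypes were compared to find which transcripts of these cells follow its loss. Cd38 itself was at 125 ± 22.2 TPM in Cd38+/+ (SD, n = 3), 90.6 ± 0.231 in Cd38+/- (SD, n = 3) and 15.7 ± 5.21 in Cd38-/- (SD, n = 6, from 8.54 to 21.9), with no overlap between the genotypes.

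TPM divides the reads of a gene by transcript length and scales every library to the same sum, so levels of different genes can be set side by side, but how many reads a value rests on is not known. Differences below are log2 fold changes of TPM + 1 from limma, and a gene was called where its Storey q-value was under 0.05 and its change at least 1.2-fold. The labels name no separate animals or batches, so the tests measure only the spread between these libraries.

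Some libraries stood apart before any comparison was made. Zeros among the 11845 expressed genes numbered 193 to 336 per Cd38+/+ library, against 4 to 14 in Cd38+/- and 7 to 10 in Cd38-/-. The 10 astrocyte markers summed to 10092 to 16308 TPM over the 12 libraries, against 31.2 to 117 TPM for 10 neuronal markers. Not all other cell types were that low. The 7 oligodendrocyte markers summed to 1295 to 17799 TPM, above the astrocyte sum (11984) in Cd38-/- replicate 3. The 5 ependymal markers summed to 2910 to 5997 TPM. Cd38+/- replicate 1 held 7208 TPM of 7 choroid plexus markers in sum, against 133 to 1994 in the 11 other libraries, led by Ttr at 6537 TPM. Slc12a2, Slc12a4, Wnk1 and Stk39 each had their highest value in that library, 4 of the 7 tested genes or 57.1%, where 15.4% of all expressed genes did. Results that rest on it are given with and without it.

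Of the 2 cotransporter genes whose Cd38+/- and Cd38-/- libraries did not overlap, the promoter windows are shown for a view of the sequence at their starts. Each runs from 250 bases before to 50 bases after the transcription start in RefSeq on GRCm38.p6, 5′ to 3′ on the strand of the gene. Capitals mark GGGCGG (a GC box) and CACGTG (an E-box) on either strand. The Slc12a4 window is chr8:105966066-105966365 on the minus strand and the Slc12a9 window is chr5:137333533-137333832 on the minus strand.
Slc12a4: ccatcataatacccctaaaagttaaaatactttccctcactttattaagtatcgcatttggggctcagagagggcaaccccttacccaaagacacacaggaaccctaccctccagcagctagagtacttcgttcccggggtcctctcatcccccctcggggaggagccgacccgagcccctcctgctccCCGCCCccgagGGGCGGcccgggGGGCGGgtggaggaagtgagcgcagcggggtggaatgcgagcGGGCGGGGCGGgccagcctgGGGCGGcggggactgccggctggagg
Slc12a9: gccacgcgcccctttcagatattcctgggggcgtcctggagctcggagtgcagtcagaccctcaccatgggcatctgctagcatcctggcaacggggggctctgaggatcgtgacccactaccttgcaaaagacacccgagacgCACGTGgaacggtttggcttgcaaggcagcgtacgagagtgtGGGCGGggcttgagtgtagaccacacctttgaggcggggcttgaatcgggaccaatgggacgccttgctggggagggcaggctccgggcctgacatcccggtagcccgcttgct
The Slc12a4 window held 6 GC boxes and no E-box. The Slc12a9 window held 1 GC box and 1 E-box, which begins 106 bases before the start. Windows of 7 of the 8 genes were examined, 9 windows in all. No window of Slc12a2 was examined, so its promoter is not described. A GC box was present in 9 of these 9 windows, where 35.7% of the 32851 windows examined over the genome hold one. An E-box was present in 4 of the 9 windows, against 7.15% of the same 32851 windows. These windows belong to 3 genes (Slc12a5, Slc12a7 and Slc12a9), and those of Slc12a7 overlap and share 1 E-box. No E-box overlapped a GC box, though a pair of the GC boxes counted for Slc12a4 share a letter (GGGCGGGGCGG), and a match of letters is not a bound site.

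**Figure D1:**
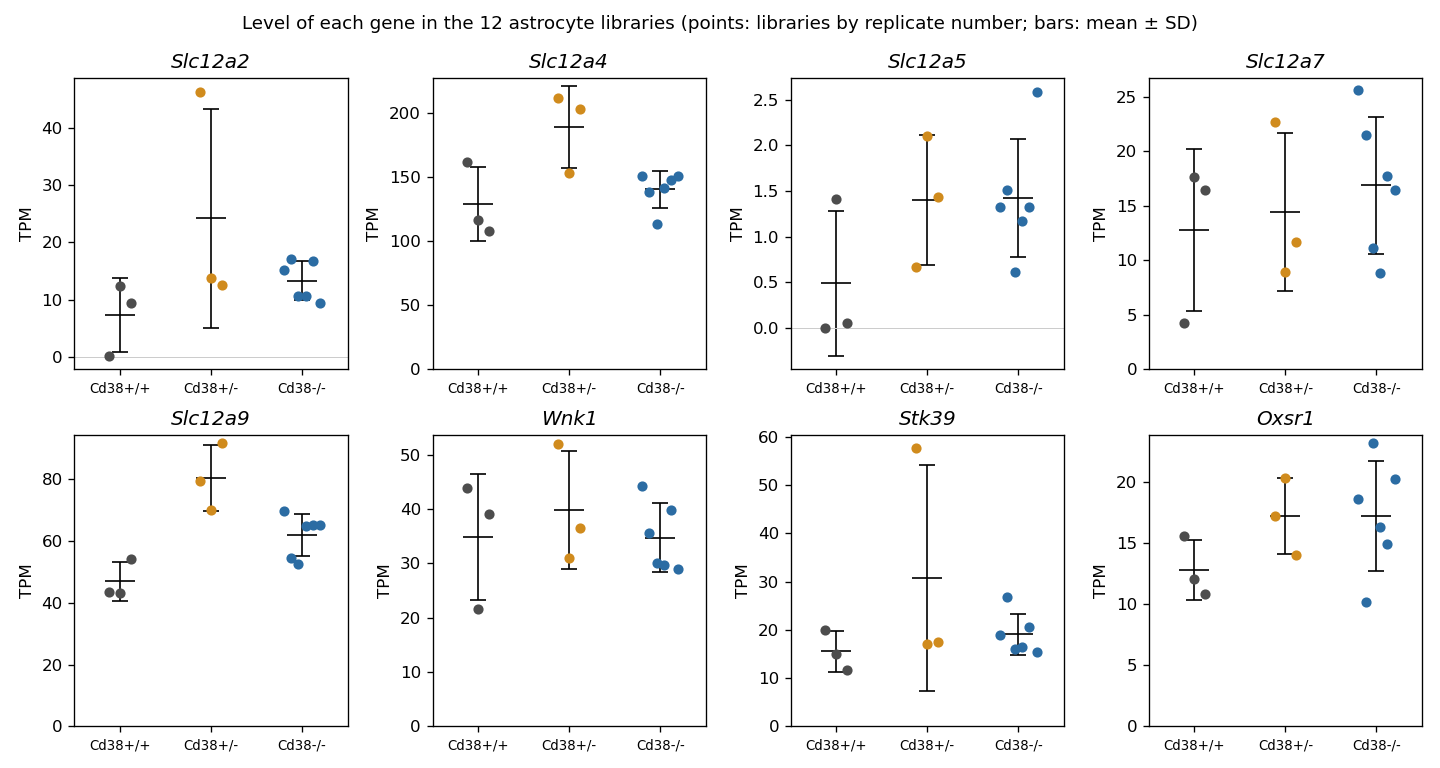
TPM of the 8 genes (vertical axes, linear, each with its own scale) in the Cd38+/+, Cd38+/- and Cd38-/- libraries (horizontal axes), with 1 point per library and bars for mean ± SD. Slc12a4 lies between 108 and 211 TPM in every library, Slc12a5 does not pass 2.59, and Cd38+/- replicate 1 stands far above the rest for Slc12a2 and Stk39.

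Slc12a4 (KCC1) was the most abundant cotransporter of the set in every library, and Slc12a9 came second. Mean levels of Slc12a4 were 129 ± 28.7 TPM in Cd38+/+ (SD, n = 3), 189 ± 31.7 in Cd38+/- (SD, n = 3) and 140 ± 14.3 in Cd38-/- (SD, n = 6). In Cd38+/+ the order by mean was Slc12a4, Slc12a9 (46.9 TPM), Wnk1 (34.9), Stk39 (15.5), Oxsr1 (12.8), Slc12a7 (12.8), Slc12a2 (7.33) and Slc12a5 (0.49). Of the neighbours in that order, Slc12a4 lay above Slc12a9 and Wnk1 above Stk39 without overlap of their libraries, and the other neighbours overlapped. In Cd38-/- the order was Slc12a4, Slc12a9 (61.9), Wnk1 (34.7), Stk39 (19.0), Oxsr1 (17.2), Slc12a7 (16.9), Slc12a2 (13.3) and Slc12a5 (1.42). There each step down to Stk39 was free of overlap, as was the step from Slc12a2 to Slc12a5, and Stk39, Oxsr1, Slc12a7 and Slc12a2 overlapped their neighbours. In Cd38+/- the order differed only in that Slc12a2 (24.2) stood above Oxsr1 (17.2) and Slc12a7 (14.4), and without replicate 1 the mean of Slc12a2 was 13.2 ± 0.912 (SD, n = 2), still above Slc12a7 (10.3) in both libraries left. Slc12a4, Slc12a9 and Wnk1 were free of overlap there, as was the step from Slc12a7 to Slc12a5.

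As a share of the summed TPM of the 5 cotransporter genes, Slc12a4 made up 57.4% to 77.2% and Slc12a9 made up 20.7% to 28.8% over the 12 libraries. The share of the importer Slc12a2 was 3.88% to 7.3% in the Cd38-/- libraries. It was 12.9% in Cd38+/- replicate 1 and 0.0526% in Cd38+/+ replicate 1, the extremes of the set. The ratio of Slc12a2 to the 3 exporters Slc12a4, Slc12a5 and Slc12a7 was 0.0559 to 0.105 in Cd38-/- (median 0.0851). In Cd38+/+ it was 0.000664, 0.0914 and 0.0762 in replicates 1 to 3, and in Cd38+/- it was 0.198, 0.0843 and 0.0579. Apart from replicate 1 of each of these genotypes, the transcript ratio of importer to exporters lay between 0.0559 and 0.105 in the 3 genotypes. The summed TPM of the 5 genes was 188.1 to 209.2 in Cd38+/+, 247.6 to 360.3 in Cd38+/- and 187.6 to 262.6 in Cd38-/-, so that Cd38+/- lay above Cd38+/+ without overlap and overlapped Cd38-/-.

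**Figure D2:**
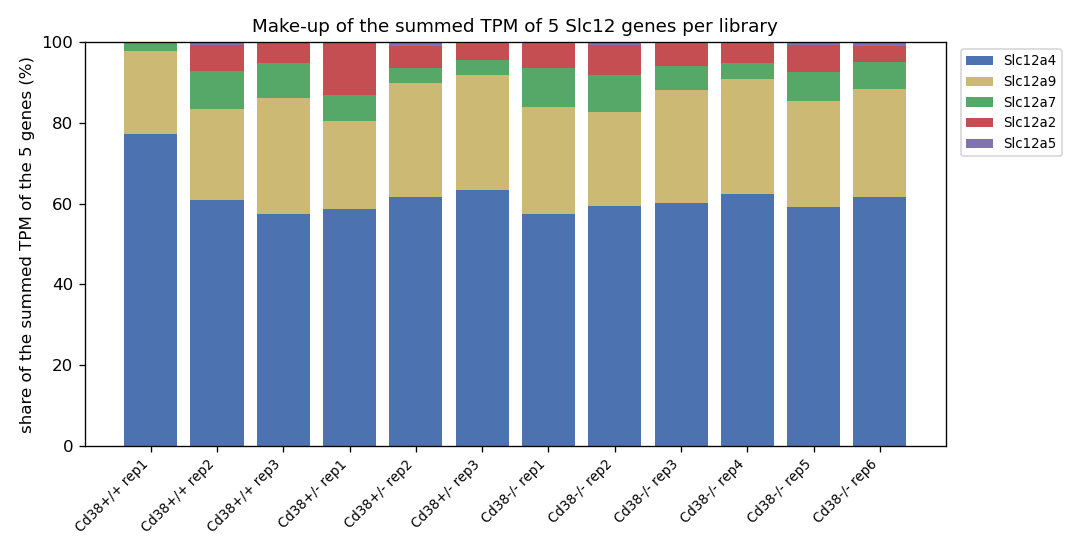
Share of the summed TPM of 5 Slc12 genes (vertical axis, percent, from 0 to 100) in each of the 12 libraries (horizontal axis), with 1 stacked bar per library. Slc12a4 fills more than 57% of every bar, and the Slc12a2 band is widest in Cd38+/- replicate 1 (12.9%) and all but missing in Cd38+/+ replicate 1 (0.0526%).

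None of the 7 tested genes was called in any of the 3 comparisons. Between Cd38-/- and Cd38+/+, 0 of 7 were called by limma where 8.28% of all 11722 genes tested were, and 1 of 7 (Slc12a9) had an unadjusted p under 0.05, against 23.6% of all genes. The fitted change was above 0 for 7 of 7, beside 64.3% of all genes, with a median of 0.37 beside 0.15. The change was above 0 for 6 of 7, with Wnk1 below, under median-ratio scaling (median 0.26), quantile normalization (0.13) and removal of the length and GC trend (0.25). It was likewise above 0 for 6 of 7 with library quality weights and when any one of Cd38+/+ replicates 1 and 2 and Cd38-/- replicates 1 and 5 was left out. In Cd38+/- against Cd38+/+, 0 of 7 were called and 0% of all 11763 genes. Here 2 of 7 (Slc12a4 and Slc12a9) had an unadjusted p under 0.05, against 13.5%, the fitted change was above 0 for 7 of 7, beside 64.4% of all genes, and its median was 0.56 beside 0.18. Without Cd38+/- replicate 1, Cd38+/+ replicate 1 or Cd38+/+ replicate 2 the change was above 0 for 6 of 7 (medians 0.39, 0.71 and 0.59), as with quantile normalization, and with library quality weights the median was 0.21. In Cd38-/- against Cd38+/-, 0 of 7 were called where 0.0346% of 11563 genes were, 2 of 7 (again Slc12a4 and Slc12a9) had an unadjusted p under 0.05, against 11.2%, the fitted change was above 0 for 1 of 7, beside 45.4%, and its median was -0.37 beside -0.02. Without Cd38+/- replicate 1 the change was above 0 for 3 of 7, with a median of -0.02, and with library quality weights likewise for 3 of 7, with a median of -0.02. The comparisons share libraries, so their values do not stand on separate evidence. TPM of whole cell preparations cannot tell fewer cells of a type apart from less RNA per cell.

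**Figure D3:**
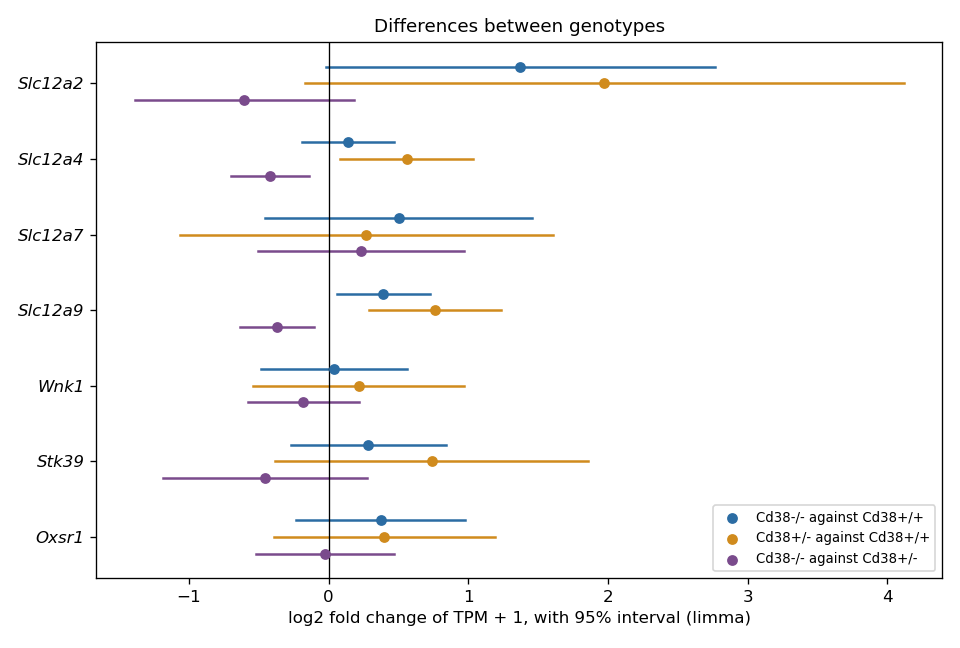
Log2 fold change of TPM + 1 (horizontal axis) for the 7 tested genes (vertical axis), with points for the limma estimates and lines for 95% intervals; colours mark the 3 comparisons. The intervals of Slc12a9 lie off 0 in all 3 comparisons and those of Slc12a4 in the 2 that involve Cd38+/-, the interval of Slc12a2 is the widest, and no estimate passed the q threshold.

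Slc12a2, the importer NKCC1, lies on chromosome 18 (57878678 to 57946821, GRCm38, plus strand). It measured 0.11, 12.4 and 9.48 TPM in Cd38+/+ replicates 1 to 3 and 46.4, 13.8 and 12.5 TPM in Cd38+/- replicates 1 to 3. In the 6 Cd38-/- libraries its lowest, median and highest values were 9.48, 12.9 and 17.0 TPM. Thus 1 wild-type library was near 0, 1 heterozygous library was far above the rest, and the 10 others lay between 9.48 and 17.0 TPM. The fitted change was 1.37 (SE 0.64, 95% interval -0.02 to 2.77, limma q = 0.124) in Cd38-/- against Cd38+/+. In Cd38+/- against Cd38+/+ it was 1.98 (SE 0.94, interval -0.17 to 4.12, q = 0.249), and in Cd38-/- against Cd38+/- it was -0.60 (SE 0.36, interval -1.39 to 0.18, q = 0.402). Each of these sizes moved with single libraries. Without Cd38+/+ replicate 1 the change of Cd38-/- against Cd38+/+ was 0.23 (q = 0.327), and without Cd38+/+ replicate 2 or replicate 3, which leaves that library more weight, Slc12a2 was called at 2.03 (q = 0.0403) and 1.85 (q = 0.0436). The fits without replicate 2 and replicate 3 called 1931 of 11735 and 3119 of 11779 genes in all. The change of Cd38+/- against Cd38+/+ was 0.84 (q = 0.282) without Cd38+/+ replicate 1 and 1.39 (q = 0.703) without Cd38+/- replicate 1. Without Cd38+/- replicate 1 the change of Cd38-/- against Cd38+/- was -0.02 (q = 0.793).

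The high value of Slc12a2 in Cd38+/- replicate 1 was 3.74 times its median in the other 11 libraries, a ratio that 0.423% of expressed genes reached or passed in that library. Choroid plexus markers were high there as well. By the same ratio Kl (187), Aqp1 (49.3), Ttr (29.3) and Kcne2 (18.8) stood out more than Slc12a2, and Folr1 (3.31), Clic6 (3.09) and Otx2 (1.4) less. Besides Ttr, Folr1 was at 232 TPM, Kl at 136, Clic6 at 133, Kcne2 at 65.5, Otx2 at 87.2 and Aqp1 at 17.3, and 5 of the 7 were at their highest of the 12 libraries. Among the Cd38-/- libraries, replicates 2 and 5 had the highest Ttr (1642 and 1014 TPM) and also the highest Slc12a2 (17.0 and 16.8 TPM). Kl, Kcne2 and Aqp1 were likewise highest in those libraries. The remaining markers were not: Folr1 and Otx2 were higher in replicate 1 than in replicate 5. Clic6 was highest in replicate 6 (68.4 TPM), where Slc12a2 was lowest (9.48 TPM). Kl and Aqp1 were listed at 0 in each Cd38+/+ library, where the summed markers ran from 133 to 323 TPM, against 275 to 1994 in Cd38-/-. In Cd38-/- against Cd38+/+, 3 of 6 choroid markers tested were called higher, where 6.42% of all genes were. These were Ttr (change 6.02, limma q = 0.0291), Folr1 (1.14, q = 0.0180) and Clic6 (1.37, q = 0.0280), and the libraries of Ttr overlapped. The part of choroid plexus RNA in the levels of Slc12a2 was not tested.

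**Figure D4:**
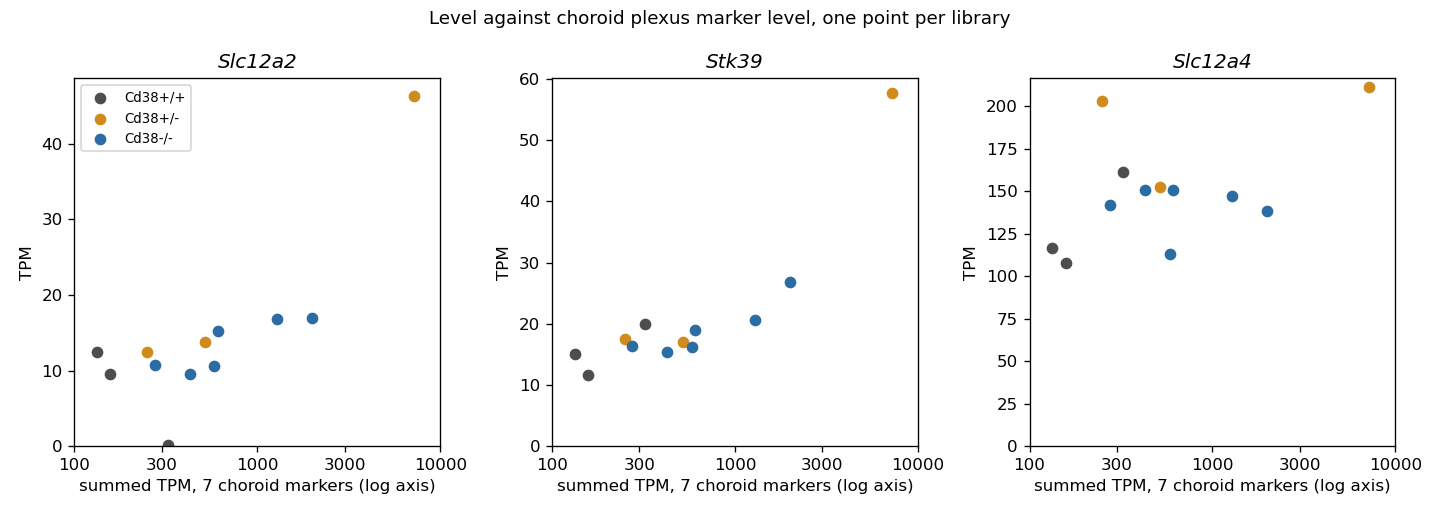
TPM of Slc12a2, Stk39 and Slc12a4 (vertical axes, linear) against the summed TPM of 7 choroid plexus markers (horizontal axes, log scale), with 1 point per library coloured by genotype. Cd38+/- replicate 1, at 7208 TPM of markers, holds the highest Slc12a2 (46.4 TPM) and Stk39 (57.8 TPM) by far, while its Slc12a4 (211 TPM) is close to that of Cd38+/- replicate 3 (203 TPM).

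Slc12a4, the exporter KCC1 found in most cell types, lies on chromosome 8 (105943590 to 105966097, minus strand). Its values were 161, 117 and 108 TPM in the Cd38+/+ libraries and 211, 153 and 203 TPM in the Cd38+/- libraries. In Cd38-/- the lowest, median and highest values were 113, 145 and 151 TPM. Every Cd38+/- library was above every Cd38-/- library, the nearest pair being 153 and 151 TPM, whereas Cd38+/+ overlapped both. The change of Cd38-/- against Cd38+/- was -0.42 (SE 0.13, 95% interval -0.70 to -0.14, limma q = 0.202), and that of Cd38+/- against Cd38+/+ was 0.56 (SE 0.21, interval 0.08 to 1.04, q = 0.208). Cd38-/- against Cd38+/+ gave 0.14 (SE 0.15, interval -0.19 to 0.47, q = 0.338). Slc12a4 had its highest mean in Cd38+/-, by a margin that did not pass the threshold. Its window printed above held 6 GC boxes, as did each Slc12a7 window, and a link of the motif to the levels was not tested. Without Cd38+/- replicate 1 the mean of Cd38+/- was 178 ± 35.6 TPM (SD, n = 2), with changes of 0.47 against Cd38+/+ (q = 0.675) and -0.33 for Cd38-/- against it (q = 0.295).

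Slc12a9 lies on chromosome 5 (137314558 to 137333597, minus strand), the chromosome that also carries Cd38 (43868553 to 43912375). It measured 43.4, 43.2 and 54.2 TPM in Cd38+/+ and 79.3, 70.1 and 91.6 TPM in Cd38+/-. The Cd38-/- libraries had a lowest, median and highest value of 52.4, 64.9 and 69.8 TPM. Cd38+/- lay above both other genotypes without overlap, though the nearest values of Cd38+/- and Cd38-/- were 70.1 and 69.8 TPM. Cd38-/- overlapped Cd38+/+: 5 of 6 Cd38-/- libraries lay above the highest Cd38+/+ library (54.2 TPM), and the lowest (52.4 TPM) did not. The change was 0.76 (SE 0.21, 95% interval 0.29 to 1.24, limma q = 0.177) in Cd38+/- against Cd38+/+ and 0.39 (SE 0.15, interval 0.06 to 0.73, q = 0.0856) in Cd38-/- against Cd38+/+. Between the mutant genotypes it was -0.37 (SE 0.12, interval -0.64 to -0.10, q = 0.233). Leaving out Cd38+/- replicate 1 left the mean of Cd38+/- at 80.8 ± 15.2 TPM (SD, n = 2) and the changes at 0.77 (q = 0.674) and -0.37 (q = 0.269).

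Slc12a9 had the lowest q of the 7 genes in both comparisons with Cd38+/+, and whether it was called turned on the analysis. It passed between Cd38-/- and Cd38+/+ with no filter on low values (0.39, q = 0.0472), after each library was freed of its trend with gene length and GC (0.50, q = 0.0318) and without Cd38+/+ replicate 3 (0.50, q = 0.0244), and over all its alternatives q ran from 0.0244 to 0.531. In the same order, the fits that called Slc12a9 called 2283 of 18906, 1023 of 11709 and 3119 of 11779 genes. In Cd38+/- against Cd38+/+, 1 fit of all 12 libraries called Slc12a9 (q = 0.0132) and Slc12a4 (q = 0.0375), where it called 1464 of all 11763 genes. Libraries without overlap were found for Slc12a9 and Slc12a2 in Cd38+/- against Cd38+/+, 2 of 7 beside 22.5% of all genes, although for Slc12a2 the nearest values were 12.5 and 12.4 TPM. Between Cd38-/- and Cd38+/- they were found for Slc12a4 and Slc12a9, 2 of 7 beside 5.73%, and in Cd38-/- against Cd38+/+ for 0 of 7 beside 11.8%. The 10 astrocyte markers summed to 14485 to 16308 TPM in Cd38+/-, above 10092 to 14440 in Cd38+/+ and 11965 to 14457 in Cd38-/-. The nearest of these sums were 14485 and 14457 TPM. Not every marker followed the sum. Mean Sox9 (325 against 372 TPM) and Glul (1060 against 1170) were lower in Cd38+/- than in Cd38+/+. Mean S100b was lower in Cd38+/- than in Cd38-/- (226 against 286 TPM). The 4 erythroid markers summed to 3045 to 6035 TPM in Cd38+/-, against 7416 to 33082 in Cd38+/+ and 3619 to 14490 in Cd38-/-. The part of astrocyte and erythroid RNA in the levels of Slc12a4 and Slc12a9 was not tested.

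Slc12a7, the exporter KCC4, lies on chromosome 13 (73733094 to 73816754, plus strand). It measured 4.22, 17.6 and 16.5 TPM in Cd38+/+ and 22.7, 8.92 and 11.7 TPM in Cd38+/-. In Cd38-/- its lowest, median and highest values were 8.83, 17.1 and 25.6 TPM. The genotypes overlapped throughout, and the spread within each exceeded the difference between them. The change was 0.50 (SE 0.44, 95% interval -0.45 to 1.46, limma q = 0.291) in Cd38-/- against Cd38+/+, 0.27 (interval -1.06 to 1.60, q = 0.536) in Cd38+/- against Cd38+/+ and 0.23 (interval -0.51 to 0.97, q = 0.609) in Cd38-/- against Cd38+/-. Without Cd38+/+ replicate 1, the lowest library, the first of these was -0.10 (q = 0.451) and the second -0.33 (q = 0.424). Without Cd38+/- replicate 1 the second was -0.09 (q = 0.825) and the third 0.59 (q = 0.416).

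Slc12a5, the exporter KCC2 that is typical of mature neurons, lies on chromosome 2 (164960802 to 164999731, plus strand) and was at the floor of these libraries. Its Cd38+/+ libraries were listed at 0, 1.41 and 0.06 TPM, and it measured 0.67, 2.1 and 1.44 TPM in Cd38+/-. In Cd38-/- the lowest, median and highest values were 0.61, 1.33 and 2.59 TPM. The highest value came from Cd38-/- replicate 6. That library also had the largest neuronal marker sum, 117 TPM over 10 markers against 31.2 to 66.8 in the other 11, with Snap25 at 60.7 TPM. Snap25, Syt1, Gad1, Slc17a6 and Slc17a7 were highest there, but Rbfox3, Tubb3, Th, Drd1 and Gad2 were higher in other libraries. Rbfox3 (11.2 TPM) and Tubb3 (17.4 TPM) were highest in Cd38+/+ replicate 1, where Slc12a5 was listed at 0. The part of neuronal RNA in the levels of Slc12a5 was not tested. Slc12a8, another relative outside the set, was also low, at 1.87 ± 3.22 TPM in Cd38+/+ (SD, n = 3) and 3.86 ± 0.985 in Cd38-/- (SD, n = 6), and the kidney cotransporters Slc12a1 and Slc12a3 had means of at most 0.06 and 0.32 TPM in any genotype. The low level of Slc12a5 is a description of these libraries, with no depth known to bound it.

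Wnk1, the upstream chloride-sensing kinase, lies on chromosome 6 (119923969 to 120038672, minus strand) and has the longest transcript of the set, 11330 bases. It measured 43.8, 21.7 and 39.1 TPM in Cd38+/+ and 52.0, 31.0 and 36.5 TPM in Cd38+/-. In Cd38-/- its lowest, median and highest values were 29.0, 32.7 and 44.2 TPM. The genotypes overlapped and their means differed by less than the spread of Cd38+/+, with changes of 0.04 (95% interval -0.49 to 0.56, limma q = 0.535) in Cd38-/- against Cd38+/+, 0.22 (interval -0.54 to 0.97, q = 0.496) in Cd38+/- against Cd38+/+ and -0.18 (interval -0.58 to 0.22, q = 0.544) between the mutant genotypes. The sign of the first was not settled: it was -0.09 with median-ratio scaling and -0.05 with quantile normalization. Without Cd38+/- replicate 1, where Wnk1 was highest, the second was 0.01 (q = 0.839) and the third turned to 0.02 (q = 0.787).

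Stk39, which encodes SPAK, lies on chromosome 2 (68210445 to 68472268, minus strand). It measured 19.9, 15.1 and 11.6 TPM in Cd38+/+ and 57.8, 17.1 and 17.5 TPM in Cd38+/-. Among Cd38-/- libraries the lowest, median and highest values were 15.4, 17.6 and 26.8 TPM. A single library, Cd38+/- replicate 1, was far above the rest, at 3.38 times the median of the other 11, a ratio that 0.549% of expressed genes reached or passed there. Changes were 0.28 (95% interval -0.27 to 0.84, limma q = 0.296) in Cd38-/- against Cd38+/+, 0.74 (interval -0.38 to 1.86, q = 0.327) in Cd38+/- against Cd38+/+ and -0.45 (interval -1.18 to 0.28, q = 0.464) between the mutant genotypes. Without that library the second was 0.18 (q = 0.790) and the third turned to 0.11 (q = 0.720). Like Slc12a2, Stk39 was highest among the Cd38-/- libraries in replicates 2 and 5 (26.8 and 20.6 TPM), the libraries with the most Ttr. The choroid markers Clic6 and Otx2 were highest in other libraries of that genotype. The part of choroid plexus RNA in the levels of Stk39 was not tested.

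Oxsr1, which encodes OSR1, the close relative of SPAK, lies on chromosome 9 (119238432 to 119322427, minus strand). It measured 15.6, 12.0 and 10.8 TPM in Cd38+/+ and 17.2, 20.3 and 14.1 TPM in Cd38+/-. In Cd38-/- its lowest, median and highest values were 10.2, 17.4 and 23.1 TPM. Unlike Stk39 it was not high in Cd38+/- replicate 1, at 1.11 times the median of the other libraries. The genotypes overlapped, with changes of 0.37 (95% interval -0.23 to 0.98, limma q = 0.246), 0.40 (interval -0.39 to 1.19, q = 0.391) and -0.02 (interval -0.52 to 0.47, q = 0.708) in the same order of comparisons. The ratio of Stk39 to Oxsr1 was 1.07 to 1.28 in Cd38+/+ and 0.696 to 2.64 in Cd38-/-, while in Cd38+/- it was 0.841 and 1.24 in replicates 2 and 3 but 3.36 in replicate 1.

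The genes differed in their spread over the libraries. From lowest to highest library, log2 of TPM + 1 ranged over 5.42 for Slc12a2, 2.35 for Slc12a7 and 2.22 for Stk39, against 0.96 for Slc12a4, the steadiest of the tested genes. For the 3 most variable genes, the expressed genes with the most similar pattern were sought by the mean absolute difference of centred log2 values over the 12 libraries. Nearest to Slc12a2 were Herc3 (0.264), Dock11 (0.27) and Stxbp2 (0.284), where the median over all expressed genes was 0.716, and each of these measured at most 0.16 TPM in Cd38+/+ replicate 1. Nearest to Slc12a7 were Kif27, a kinesin gene linked to cilia, and Rsph10b, a radial spoke gene of motile cilia (0.141 each), and the kinase gene Hipk1 (0.156), beside a median of 0.546. Nearest to Stk39 were Hemk1 (0.163), the copper transporter gene Slc31a1 (0.174) and the transcription factor gene Arnt (0.199), beside 0.435; each was at its highest of the 12 libraries in Cd38+/- replicate 1.

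Other genes of the WNK pathway and of the Slc12 family also had no call. Of 16 such genes, 10 were tested and 0 were called by limma in any comparison, with median changes of 0.17 in Cd38-/- against Cd38+/+, 0.12 in Cd38+/- against Cd38+/+ and -0.01 between the mutant genotypes. Among the most abundant were Ppp1ca, Ppp1cc and Ppp1cb, catalytic subunits of the phosphatase that dephosphorylates cotransporters, at 310 ± 15.8, 131 ± 8.83 and 82.7 ± 14.5 TPM in Cd38-/- (SD, n = 6) against 295 ± 50.7, 114 ± 28.8 and 72.7 ± 14.3 in Cd38+/+ (SD, n = 3). Cab39l, one of the scaffold proteins that activate SPAK and OSR1, was at 74.7 ± 18.5 and 53.7 ± 10.7 TPM (change 0.45, q = 0.133). It too was highest in Cd38+/- replicate 1 (164 TPM, 2.61 times the median of the other 11).

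Among 25 chloride and volume-regulated anion channels and anion exchangers, 22 were tested. In Cd38-/- against Cd38+/+, 2 of the 22 were called higher and none lower, a share not far from the 6.42% of all genes called higher. Clcn2, the chloride channel ClC-2 that astrocytes hold at vessel endfeet with GlialCAM, went from 25.6 ± 10.6 TPM in Cd38+/+ (SD, n = 3) to 50 ± 6.58 in Cd38-/- (SD, n = 6), a change of 1.00 (SE 0.23, limma q = 0.0237). Lrrc8b, a subunit of the volume-regulated anion channel, went from 4.23 ± 1.73 to 13.2 ± 5.06 TPM, a change of 1.42 (SE 0.36, q = 0.0319). Neither overlapped between these genotypes, nor did Mlc1 of the same list, which was not called, beside 11.8% of all genes without overlap. In Cd38+/-, Clcn2 and Lrrc8b were at 62.5 ± 1.77 and 12.9 ± 4.39 TPM (SD, n = 3), without being called there (q = 0.176 and 0.202). The calls were lost without Cd38-/- replicate 1, 2, 5 or 6, when libraries were weighted by quality and when replicate numbers entered as a block (q = 0.325 and 0.328), alone or together with the length and GC trend removed (q = 0.307 and 0.330), and that of Lrrc8b also with Benjamini-Hochberg adjustment (adjusted p = 0.0564). Hepacam (GlialCAM) and Mlc1, endfoot proteins that work with these channels, were at 332 ± 45.3 and 1150 ± 40.7 TPM in Cd38-/- against 391 ± 55.4 and 942 ± 96.0 in Cd38+/+, with changes of -0.24 (q = 0.192) and 0.30 (q = 0.0644). The median change of the 22 was 0.29, beside 0.15 for all genes.

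Of the sodium pump, which supplies the ion gradients that the cotransporters use, 8 subunit and regulator genes were tested and 0 were called by limma in any comparison. Atp1b2, the pump's beta subunit typical of astrocytes, was at 1630 ± 447 TPM in Cd38+/+ (SD, n = 3), 2170 ± 194 in Cd38+/- (SD, n = 3) and 1330 ± 359 in Cd38-/- (SD, n = 6). Like Slc12a4, it lay higher in every Cd38+/- library than in any Cd38-/- library, while Cd38+/+ overlapped both (change of -0.75, q = 0.200, for Cd38-/- against Cd38+/-). Fxyd1, a regulator of the pump, was at 1160 ± 85.0, 978 ± 78.1 and 960 ± 147 TPM in the same order of genotypes, with a change of -0.28 (q = 0.132) in Cd38-/- against Cd38+/+. The median changes of the 8 genes were -0.01, 0.07 and -0.03 in Cd38-/- against Cd38+/+, Cd38+/- against Cd38+/+ and Cd38-/- against Cd38+/-.

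**Figure D5:**
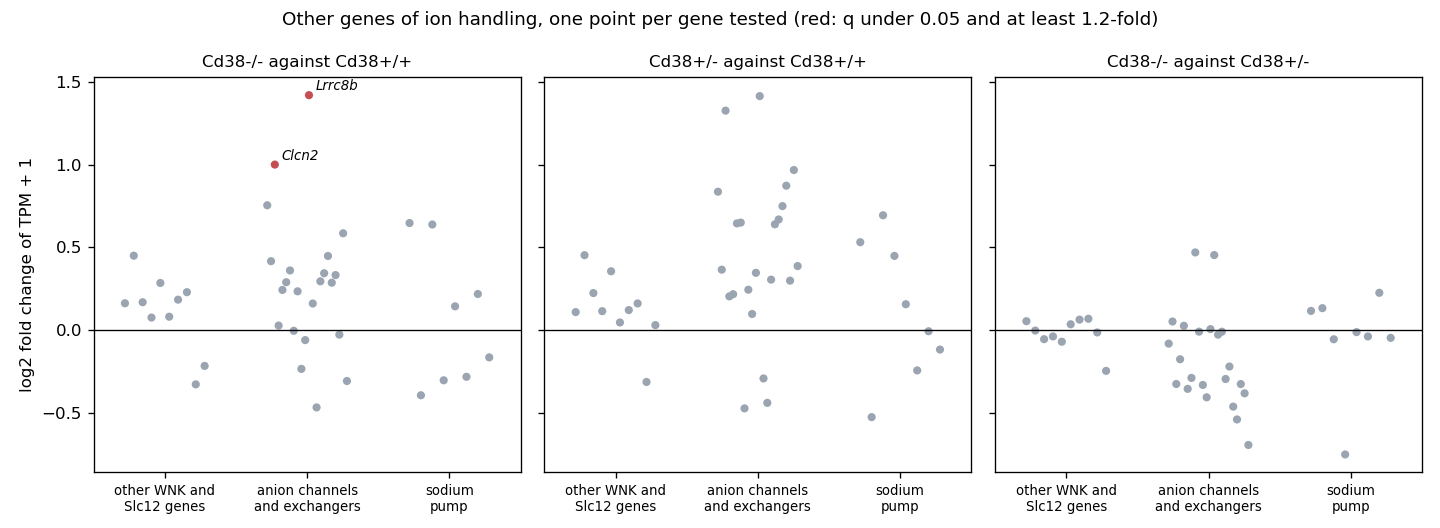
Log2 fold change of TPM + 1 (vertical axis, shared) for each tested gene of 3 lists of ion-handling genes (horizontal axis), in 1 panel per comparison; red points were called. Clcn2 (1.00) and Lrrc8b (1.42) in Cd38-/- against Cd38+/+ are the only red points among the 3 lists and 3 comparisons.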

How the data were processed

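RNA of purified midbrain astrocytes was measured in 12 libraries, 3 Cd38+/+, 3 Cd38+/- and 6 Cd38-/-, grouped by the genotype in the sample labels. The authors made cDNA with the SMART-Seq v4 low-input kit and sequenced paired ends. Per the submitters' processing notes they used Trim Galore 0.6.4, STAR 2.7.1a, RSEM 1.2.28 and the mm10 build; the gene annotation is not given in the sources used here. The deposited values are TPM for 20614 genes, rounded by the authors, 1 column per library, each with the same sum. Depth is therefore not known, counting intervals cannot be had, and no limit follows from a 0. The scaling also means that a gene's TPM moves with the share taken by all others.

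A gene entered a comparison when either genotype averaged over 5 TPM. The model was limma 3.58.1 in R 4.3.3 (lmFit, then trended eBayes, two-sided) on log2(TPM + 1), using only the libraries of the compared genotypes. Fold changes on this scale understate those of low genes. Calls needed a Storey q under 0.05 over all genes tested and a change of at least 1.2-fold. The procedure was also run on simulated data with independent normal noise and planted changes. That setting has no libraries that stand apart as some do here, so nothing is concluded from it. Positions came from GENCODE vM21 (GRCm38), which matched 20503 genes, and promoter windows from RefSeq. Figures used matplotlib 3.10.9 in Python 3.11.15.

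The members, the 3 lists of ion-handling genes and the marker lists were chosen with earlier results of these data known. Named genes were the members, Cd38, each called gene of the 3 lists and otherwise up to 4 per list with the highest mean TPM, the 3 most similar genes to each of the 3 most variable members, and defining markers beside a result; Slc12a1, Slc12a3, Slc12a8, Hepacam, Mlc1, Aqp1 and Otx2 were described beside them. A list gene is not reported here and was left out of its list. Tried as alternatives were a pseudocount of 0.1 or 5, dropping the filter or asking for 1 TPM in every library, Benjamini-Hochberg adjustment, no trend, library quality weights (statmod 1.5.0), median-ratio scaling, quantile normalization, 1 fit of all 12 libraries, blocking on replicate number, taking out the trend on length and GC content (a spline of 4 degrees of freedom), that block and trend jointly, and leaving out each library.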

Additional observations from a re-analysis of the deposited data

Results flagged for a closer look

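Slc12a4 in Cd38-/- replicate 3 stood apart from its group: at 112.89 TPM it was the lowest of the 6 libraries, and its gap to the nearest of the others was 0.676 of the range of the group, above Dixon's 95% critical value for that number of libraries. The other 5 lay between 138 and 151 TPM. This check was made in Cd38-/- for each of the 8 genes, and it flags about 1 such group in 20 by chance. Without that library the change of Slc12a4 was 0.20 (limma q = 0.236) in Cd38-/- against Cd38+/+ and -0.36 (q = 0.360) in Cd38-/- against Cd38+/-.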

How the results depend on the processing

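The number of members called was 0 in each comparison and stayed 0 under most alternatives. It became 1 in Cd38-/- against Cd38+/+ with no filter (2283 of all 18906 genes called) and with the length and GC trend removed (1023 of 11709). In Cd38+/- against Cd38+/+ it became 2 in 1 fit of all 12 libraries (1464 of 11763 genes called). In Cd38-/- against Cd38+/- it became 3 with library quality weights: Slc12a4 (-0.51, q = 0.000403), Slc12a7 (0.42, q = 0.0347) and Slc12a9 (-0.54, q = 0.000360). The estimation of these weights stopped before its tolerance was reached in some fits, and the weights called 3120 genes in that comparison but 1 in Cd38-/- against Cd38+/+. Leaving out 1 library gave 0 to 2 members called in Cd38-/- against Cd38+/+, where 74 to 3119 genes were called in all, and 0 members in the other comparisons.

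Of 439 member changes under the alternatives, 408 kept their sign and their side of the threshold, 10 gained a call, 0 lost one and 21 turned sign. In Cd38-/- against Cd38+/+, Wnk1 turned to -0.0712 with library quality weights, -0.0863 with median-ratio scaling, -0.0511 after quantile normalization and -0.0379 with the length and GC trend removed. Slc12a7 in Cd38+/- against Cd38+/+ turned to -0.0291 after quantile normalization. In Cd38-/- against Cd38+/-, Stk39 turned to 0.0527 and Oxsr1 to 0.233 with the weights, and Oxsr1 to 0.00387 with the trend removed. Some changes turned sign when 1 library was left out. In Cd38-/- against Cd38+/+ the range was -0.0952 to 0.823 for Slc12a7 and -0.265 to 0.227 for Wnk1. In Cd38+/- against Cd38+/+ the range was -0.326 to 0.592 for Slc12a7 and -0.0852 to 0.407 for Wnk1. In Cd38-/- against Cd38+/- the range was -0.0375 to 0.59 for Slc12a7, -0.339 to 0.0243 for Wnk1, -0.742 to 0.108 for Stk39 and -0.154 to 0.108 for Oxsr1. The cause of these changes was not tested.

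The scaling moved the median change of all genes in Cd38-/- against Cd38+/+ from 0.15 to 0.03 (median-ratio) and 0.01 (quantile), and the share of calls that were higher from 77.5% to 58.3% and 50.5%; 5 of the 7 members lay above the median of all genes, and 5 and 6 under these scalings. The number of all genes called there was 970, but ran from 1 with the weights to 3119 without Cd38+/+ replicate 3. With the replicate block, 0 members were called in each comparison and the calls over all genes were 2, 4 and 2, against 970, 0 and 4; Clcn2 (q = 0.325) and Lrrc8b (q = 0.328) were then not called. The labels do not say that equal numbers pair samples, and the deviations of same-numbered libraries correlated at -0.317 to 0.501, so the numbers were taken as names. A library matched its own number best in 2, 0 and 2 of 3 cases between Cd38+/+ and Cd38+/-, Cd38+/+ and Cd38-/-, and Cd38+/- and Cd38-/-. Depth limits all values but is unknown here.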
